A study of Mus musculus with 12 samples.

Results

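The genes of 8 transcription factors of upper-layer cortical neurons were examined: the cut-like homeobox genes Cux1 and Cux2, the POU domain genes Pou3f1, Pou3f2 and Pou3f3, and Mef2c, Rorb and Bhlhe22. For each gene the mm10 gene body plus 20 kb on each side formed a window, and every peak of acetylated lysine 27 of histone H3 (H3K27ac) in that window was collected. The 8 windows are 8 of 21887 windows of protein-coding genes, and they held 85 of the 85907 sites, a site being the merged peaks of all libraries at one place. H3K27ac was mapped by native chromatin immunoprecipitation after micrococcal nuclease digestion in lysates of the whole cortex of mouse embryos at E15.5, during neurogenesis. The 3 wild-type (WT) libraries came from Prdm16 flox/flox embryos, which carry the floxed allele without Cre. The 3 conditional knockout (cKO) libraries came from embryos with the same floxed alleles and Emx1-Ires-Cre, a driver expressed in the progenitors of the dorsal forebrain, so interneurons that migrate in from ventral sources, vessels and microglia keep an intact Prdm16. The PRDM16 protein is a chromatin regulator with zinc fingers that acts in cortical progenitors. The comparison asked which H3K27ac sites of these genes differ when Prdm16 is lost.

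The cortex is built from the inside outwards, so that the neurons of the upper layers, which connect mainly to other cortical areas, are the last to be born. At mid to late neurogenesis their precursors and young neurons switch on a set of transcription factors by which the upper layers are recognised in the adult. H3K27ac marks active promoters and enhancers, and long unbroken H3K27ac domains are typical of developmental regulators that are strongly active in a tissue.

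The 6 lists held 48168 to 75563 peaks and covered 53.9 to 92.1 Mb, with WT replicate 3 the shortest and WT replicate 2 the longest. Replicates 1 and 2 of both genotypes carry one library identifier (library set A) and replicate 3 of both another (library set B). Nothing in the labels says that replicates came from separate embryos, so each p-value reflects the spread among these libraries alone, and that spread may be technical. Peak lists hold no read counts, so the depth behind each value is unknown. Over Prdm16 itself the scaled covered length was 80928, 76294 and 80857 bp in WT and 94626, 95103 and 99981 bp in cKO (limma adjusted p = 0.359), a measure that does not check the deletion of an exon. As a tissue check, 5 genes of cortical neurons and their progenitors, Emx1, Neurod1, Neurod2, Neurod6 and Tubb3, were covered in every library. Their summed scaled length was 64.4 to 80.7 kb in WT and 67.7 to 74.1 kb in cKO. The ventral forebrain genes Dlx1, Dlx2, Dlx5 and Dlx6 were covered in every library as well, so coverage alone does not single out cortical neurons. In a whole-tissue lysate, fewer cells of a type and less acetylation per cell cannot be told apart.

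None of the 8 windows differed between genotypes by the test. Covered length, the bases under peaks in a window, was scaled to each list's total and compared as log2(bp + 500) by limma with the library set as covariate, with a call at a Benjamini-Hochberg adjusted p below 0.05 over the 15359 genes tested. By this rule 0 of 8 members passed, against 0.69% of all genes (0.319% lower and 0.371% higher in cKO). At an unadjusted p below 0.05, 2 of 8 members were shorter in cKO, Cux1 and Pou3f1, and none was longer, against 4.29% and 5.66% of all genes, or 9.95% in either direction. This count moved with single libraries and choices: the unadjusted limma p of Cux1 was 0.0808 without WT replicate 1, 0.0513 without cKO replicate 1, 0.0857 without cKO replicate 2 and 0.375 with equal-length lists (log2 change -0.14). That of Pou3f1 was 0.283 without WT replicate 3 and 0.282 without cKO replicate 3 (log2 change -0.16 in both). Either fit leaves 1 library in set B, which the covariate absorbs, so both estimate the change from set A and are 1 check. There were 5 members with a negative log2 change and 3 a positive one (34.7% of all genes were negative), with a median of -0.09 for the members and 0.05 for all genes. Without scaling the median of all genes was -0.05, the median of the members was -0.20 and all 8 members were negative. The scaled values of the genotypes overlapped for every member, whereas they did not overlap for 4.54% of all genes with cKO lower and 7.08% with cKO higher.

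**Figure D1:**
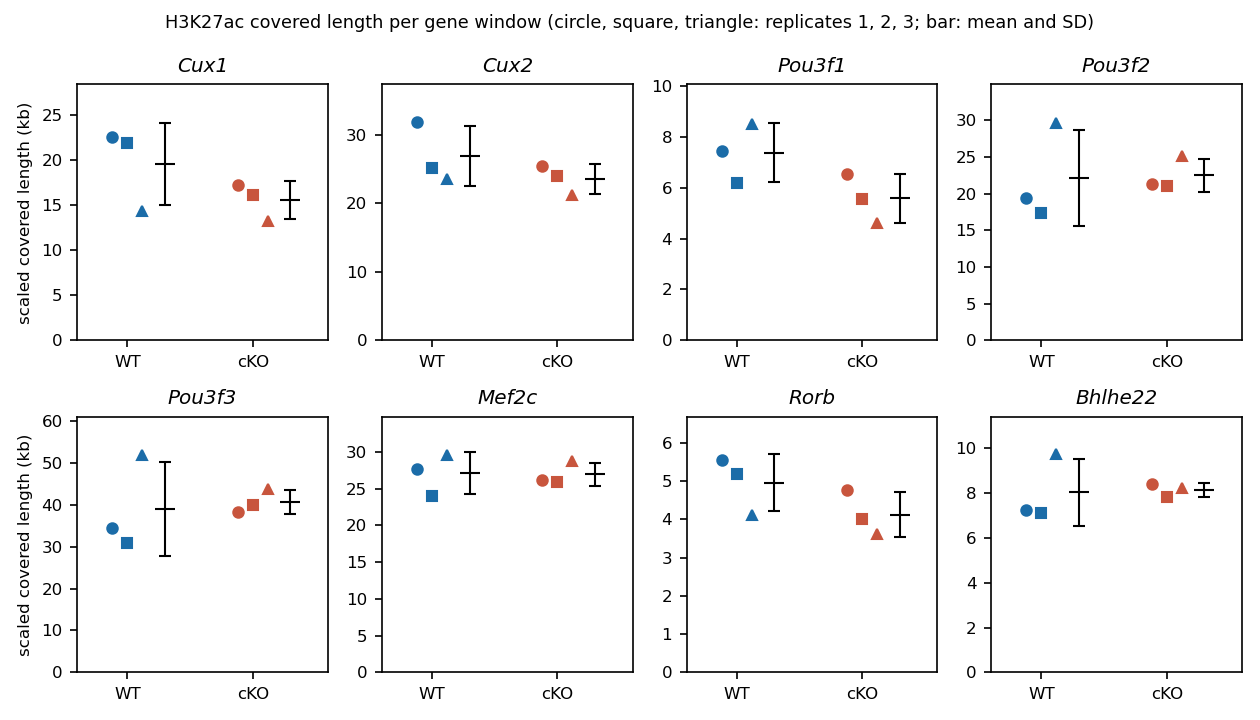
Scaled covered length in kb (vertical axes from 0) in the window of each of the 8 genes, for 3 WT (blue) and 3 cKO (red) libraries, with the mean and SD as bars. The genotypes overlap in all 8 panels, and WT replicate 3 (triangle) is the highest library for Pou3f1, Pou3f2, Pou3f3, Mef2c and Bhlhe22 and the lowest WT library for Cux1, Cux2 and Rorb.

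The share of a window under peaks, without scaling, differed among the members. It also depends on window length, which ran from 43010 bp for Pou3f1 to 359456 bp for Cux1. Pou3f3 was covered over 86.2% to 88.6% of its window in the 6 libraries and Pou3f2 over 44.4% to 47.9%. Bhlhe22 followed at 16.7% to 20.9%, and its range overlapped that of Pou3f1 at 9.42% to 19.8%. Mef2c (10.8% to 15.6%) and Cux2 (7.53% to 15.8%) overlapped with Pou3f1 and with each other. Cux1 was covered over 2.96% to 7.72% and Rorb over 1.38% to 2.98%, again with touching ranges. The windows of the short genes Pou3f1, Pou3f2, Pou3f3 and Bhlhe22 consist mostly of flanking sequence.

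Cux2 encodes a cut-like homeodomain factor that marks upper-layer neurons and acts in their dendrite and synapse formation. The gene lies on the minus strand at chr5:121857962-122050415 (mm10), and its window also holds Pheta1. Unscaled, peaks covered 36612, 31922 and 17498 bp of the window in WT and 25590, 23310 and 18577 bp in cKO. After scaling, the covered length was 31985, 25218 and 23629 bp in WT (26944 ± 4437, SD, n = 3) and 25541, 23949 and 21262 bp in cKO (23584 ± 2163, SD, n = 3). The cKO libraries lay at the low end of the WT range, and the log2 change of -0.18 ± 0.12 (SE) did not pass (limma adjusted p = 0.688). The log2 change was -0.20 in library set A and -0.15 in set B, the latter being a single library per genotype. With peaks of a -log10 q of at least 5 alone, the value was 0.10.

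Within this window lay the single site of all 8 genes that passed the test. It spans chr5:121976146-121976969 (824 bp), inside the gene body, with its middle 73858 bp downstream of the annotated 5′ end. All 3 WT lists had a peak there, of 664, 794 and 384 bp, and it was listed at 0 bp in all 3 cKO lists. The scaled lengths in WT were 580, 627 and 519 bp (575 ± 54.5, SD, n = 3). The log2 change on the log2(bp + 200) scale was -1.95 ± 0.13 (SE), with a limma adjusted p of 0.0155 over 55985 sites tested, a value that depends on the added 200 bp because cKO is at 0. The site met the minimum mean of 200 bp through WT alone, and the 3 zeros add no spread, so the SE and p rest on the WT lengths and the added 200 bp. In the authors' lists these WT peaks were of modest strength, with a fold enrichment of 4.01, 3.24 and 3.89 and a -log10 q of 3.60, 2.39 and 3.02, and they ranked above 39.0%, 20.2% and 19.4% of the peaks of their own list. The adjusted p was above 0.05 without WT replicate 1 (0.106), WT replicate 2 (0.0794), cKO replicate 1 (0.0863) or cKO replicate 2 (0.0799), where no site in the genome passed, and over all alternatives it ranged from 0.00359 to 0.106. When every list was reduced to the same number of its strongest peaks, the peak of WT replicate 2 dropped out, and no peak at this site had a -log10 q of at least 5.

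A pair of further Cux2 sites had cKO values below every WT value without passing. The first, at chr5:121966807-121970346, lies 81839 bp downstream of the 5′ end and was covered in every library. Its covered length was 3217, 3540 and 1840 bp in WT and 1555, 1421 and 1578 bp in cKO, or 2697 ± 184 bp and 1606 ± 179 bp after scaling (SD, n = 3). The log2 change was -0.68 ± 0.15 (SE, limma adjusted p = 0.256), and it was negative in all 17 settings, the reported one included. Some of these settings give the same estimate by construction. The second, at chr5:122052502-122054851, begins 2086 bp beyond the 5′ end and was named after its values were seen. It was covered over 2350, 1679 and 1309 bp in WT and 848, 1004 and 583 bp in cKO, with a log2 change of -0.87 ± 0.23 (SE, limma adjusted p = 0.341). The longest Cux2 site, chr5:121891988-121897274, showed no such order, with a log2 change of 0.21 ± 0.45 (SE, limma adjusted p = 0.908). A Cux2 site at chr5:121924255-121929384 went the other way after scaling. Its scaled length was 3376, 2937 and 3464 bp in WT and 3525, 5260 and 3926 bp in cKO. The log2 change was 0.34 ± 0.21 (SE, limma adjusted p = 0.646), and before scaling its groups overlapped.

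**Figure D2:**
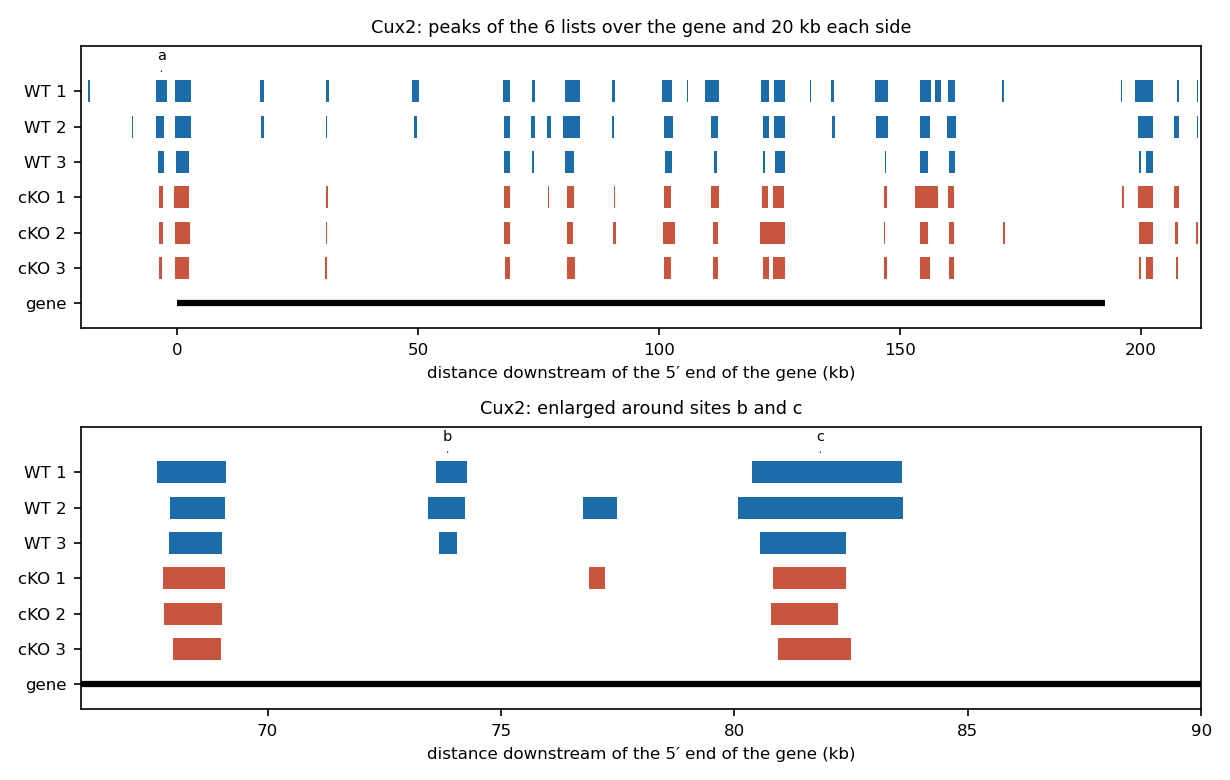
Peaks of the 6 lists (WT blue, cKO red) over the Cux2 window, as distance in kb downstream of the 5′ end of the gene (black bar), with an enlargement below. Letter b marks the site with peaks in 3 WT and 0 cKO lists, and letters a and c mark the upstream and intragenic sites whose peaks were longer in every WT library than in any cKO library.

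Over the Cux2 start itself the genotypes overlapped. The site at chr5:122047503-122050979 was covered over 3301, 3380 and 2742 bp in WT and 3069, 3120 and 2972 bp in cKO (log2 change 0.07 ± 0.14, SE, limma adjusted p = 0.902). RefSeq promoter windows (GRCm38.p6, 250 bp before to 50 bp after a start) were available for 6 of the 8 genes, 10 windows in all. Both Cux2 windows lie under this site and are shown because they differ in their coverage. The first start, chr5:122049802-122050101 on the minus strand, had all 300 bp under a peak in all 6 lists, as had 33.7% of 32851 promoter windows. The second, chr5:122047776-122048075, was covered over 300, 300 and 76 bp in WT and 165, 300 and 159 bp in cKO. Capitals mark matches, on either strand, to ATCGAT (bound by CUT homeodomains, in 0.925% of all promoter windows), the octamer ATGCAAAT (1.74%), the ROR half-site AGGTCA (16.3%), the MEF2 motif (3.69%), the CCAAT box CCAAT (37.4%) and the TATA box TATAAA (13.6%).
Cux2 first start: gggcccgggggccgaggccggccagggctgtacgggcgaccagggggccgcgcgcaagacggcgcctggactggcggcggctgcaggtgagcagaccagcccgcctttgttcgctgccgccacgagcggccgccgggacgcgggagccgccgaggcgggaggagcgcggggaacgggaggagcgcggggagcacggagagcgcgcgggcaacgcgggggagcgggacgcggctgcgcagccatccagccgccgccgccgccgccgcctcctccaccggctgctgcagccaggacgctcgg
Cux2 second start: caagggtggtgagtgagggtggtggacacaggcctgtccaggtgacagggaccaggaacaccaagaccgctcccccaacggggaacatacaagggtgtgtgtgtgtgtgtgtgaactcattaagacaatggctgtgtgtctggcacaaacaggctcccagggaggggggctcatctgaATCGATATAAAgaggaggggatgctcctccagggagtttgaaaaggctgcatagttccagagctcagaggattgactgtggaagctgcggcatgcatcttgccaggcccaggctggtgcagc
The first window holds 48 CG dinucleotides, against a median of 7 over all promoter windows, and has a GC content of 80.3% (median 52.7%). It holds none of the 6 motifs. The second holds 4 CG dinucleotides, 1 ATCGAT and 1 TATAAA, which share 1 base.

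Cux1, the close relative of Cux2, encodes a homeodomain factor of the same layers and lies on the minus strand at chr5:136248135-136567590, with Sh2b2 sharing its window. Unscaled covered length was 25767, 27748 and 10642 bp in WT and 17276, 15725 and 11535 bp in cKO. The scaled values were 22510, 21921 and 14371 bp in WT (19601 ± 4539, SD, n = 3) and 17243, 16156 and 13202 bp in cKO (15534 ± 2091, SD, n = 3). WT replicates 1 and 2 were the highest, and WT replicate 3 fell among the cKO libraries. The log2 change was -0.31 ± 0.11 (SE, limma unadjusted p = 0.0181, adjusted p = 0.346), with -0.40 in library set A and -0.12 in set B, and 3.49% of all genes had a lower value. The number of peaks in the window was 25, 27 and 12 in WT and 18, 16 and 12 in cKO.

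Cux1 had the most sites, 34, of which 9 were covered in all 6 libraries and 16 were long enough to be tested. The start site at chr5:136564683-136568975 was covered over 3507, 3862 and 2634 bp in WT and 2934, 2945 and 2670 bp in cKO (log2 change -0.09 ± 0.13, SE, limma adjusted p = 0.863). The lowest p in the window belonged to chr5:136485542-136487935, 80852 bp downstream of the 5′ end. It was covered over 1538, 2392 and 412 bp in WT and 964, 934 and 0 bp in cKO, with overlapping groups. The log2 change was -1.06 ± 0.32 (SE, limma adjusted p = 0.423). It was -0.63 without WT replicate 3 or cKO replicate 3, which both estimate the change from set A. Next came chr5:136499786-136501156, with 1154 and 1046 bp in WT replicates 1 and 2 and 0 bp in the other 4 libraries (limma adjusted p = 0.442). It met the minimum length through WT alone. Its limma adjusted p fell below 0.05 only where replicate 3 of WT or cKO was left out (0.0305 and 0.0287) or library set A stood alone (0.0316). These settings all estimate the change from set A and set the 2 WT values against zeros. Over all alternatives the adjusted p ranged from 0.0287 to 0.707. In all, 5 Cux1 sites had peaks only in WT replicates 1 and 2, and 11 had a peak in a single library.

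Pou3f1, also known as Oct6 or Scip, encodes a POU factor of postmitotic cortical neurons. It lies at chr4:124657646-124660655, and Utp11 reaches into its window. Unscaled covered length was 8532, 7850 and 6323 bp in WT and 6566, 5432 and 4050 bp in cKO. The scaled values were 7454, 6201 and 8538 bp in WT (7398 ± 1170, SD, n = 3) and 6553, 5581 and 4635 bp in cKO (5590 ± 959, SD, n = 3). Only cKO replicate 1 lay within the WT range. The log2 change of -0.38 ± 0.15 (SE) was the most negative of the 8 members (limma unadjusted p = 0.0242, adjusted p = 0.385), and 2.09% of all genes had a lower value. It was -0.16 in library set A and -0.82 in set B.

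The sites of the window differed among themselves. The site at chr4:124663783-124665080, 3127 bp beyond the high-coordinate end of the gene, was covered over 1298, 1242 and 1193 bp in WT and 699, 526 and 722 bp in cKO. Every cKO library lay below every WT library, also after scaling (1242 ± 329 bp against 688 ± 143 bp, SD, n = 3), with a log2 change of -0.69 ± 0.16 (SE, limma unadjusted p = 0.00782, adjusted p = 0.270). The site over the gene, chr4:124656594-124660139, was covered over 3472, 3399 and 2934 bp in WT and 2787, 2146 and 1225 bp in cKO. Its scaled groups overlapped (log2 change -0.59 ± 0.30, SE, limma adjusted p = 0.582). In library set A alone, the comparison that also remains without replicate 3 of either genotype, the log2 change was -0.19. A further site at chr4:124671751-124675053, with 3181, 3209 and 2196 bp in WT and 3080, 2760 and 2103 bp in cKO, had a log2 change of 0.002 ± 0.16 (SE, limma adjusted p = 0.997).

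Pou3f2 (Brn2) and Pou3f3 (Brn1) encode POU factors that act together in the production and migration of upper-layer neurons. Each lay in a long domain over the whole gene and much of its window. Pou3f3, on the plus strand at chr1:42695768-42700210, lay under a site of 38832 bp, longer than 99.99% of all sites. Pou3f2, on the minus strand at chr4:22482095-22488366, lay under a site of 22364 bp, longer than 99.96%. Unscaled, the Pou3f3 window was covered over 39362, 39051 and 38381 bp in WT and 38394, 38871 and 38328 bp in cKO. The Pou3f2 window was covered over 22170, 22018 and 21942 bp in WT and 21317, 20531 and 21950 bp in cKO, and its domain was called as 1 peak in 4 lists, as 2 peaks in cKO replicate 1 and as 3 in cKO replicate 2. These domains were of nearly the same length in all 6 lists. Scaling to the list totals multiplies the short list of WT replicate 3 most, which makes it the highest library for both genes. The scaled lengths were 34387, 30850 and 51828 bp in WT and 38321, 39936 and 43868 bp in cKO for Pou3f3 (log2 change 0.09 ± 0.13, SE, limma adjusted p = 0.862). They were 19368, 17394 and 29630 bp in WT and 21276, 21094 and 25123 bp in cKO for Pou3f2 (log2 change 0.06 ± 0.12, SE, limma adjusted p = 0.905). For both genes, and for Bhlhe22, the value was positive in library set A and negative in set B, and without scaling it was negative.

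The second Pou3f3 site, chr1:42718352-42719260, begins 18141 bp beyond the gene. It was covered over 588, 843 and 0 bp in WT and 788, 722 and 650 bp in cKO. All 3 cKO values lay above the WT values after scaling, and the log2 change of 0.94 ± 0.44 (SE) did not pass (limma adjusted p = 0.548). Without WT replicate 3, the library at 0, the log2 change was 0.29, as it was without cKO replicate 3, because both estimate the change from set A.

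**Figure D3:**
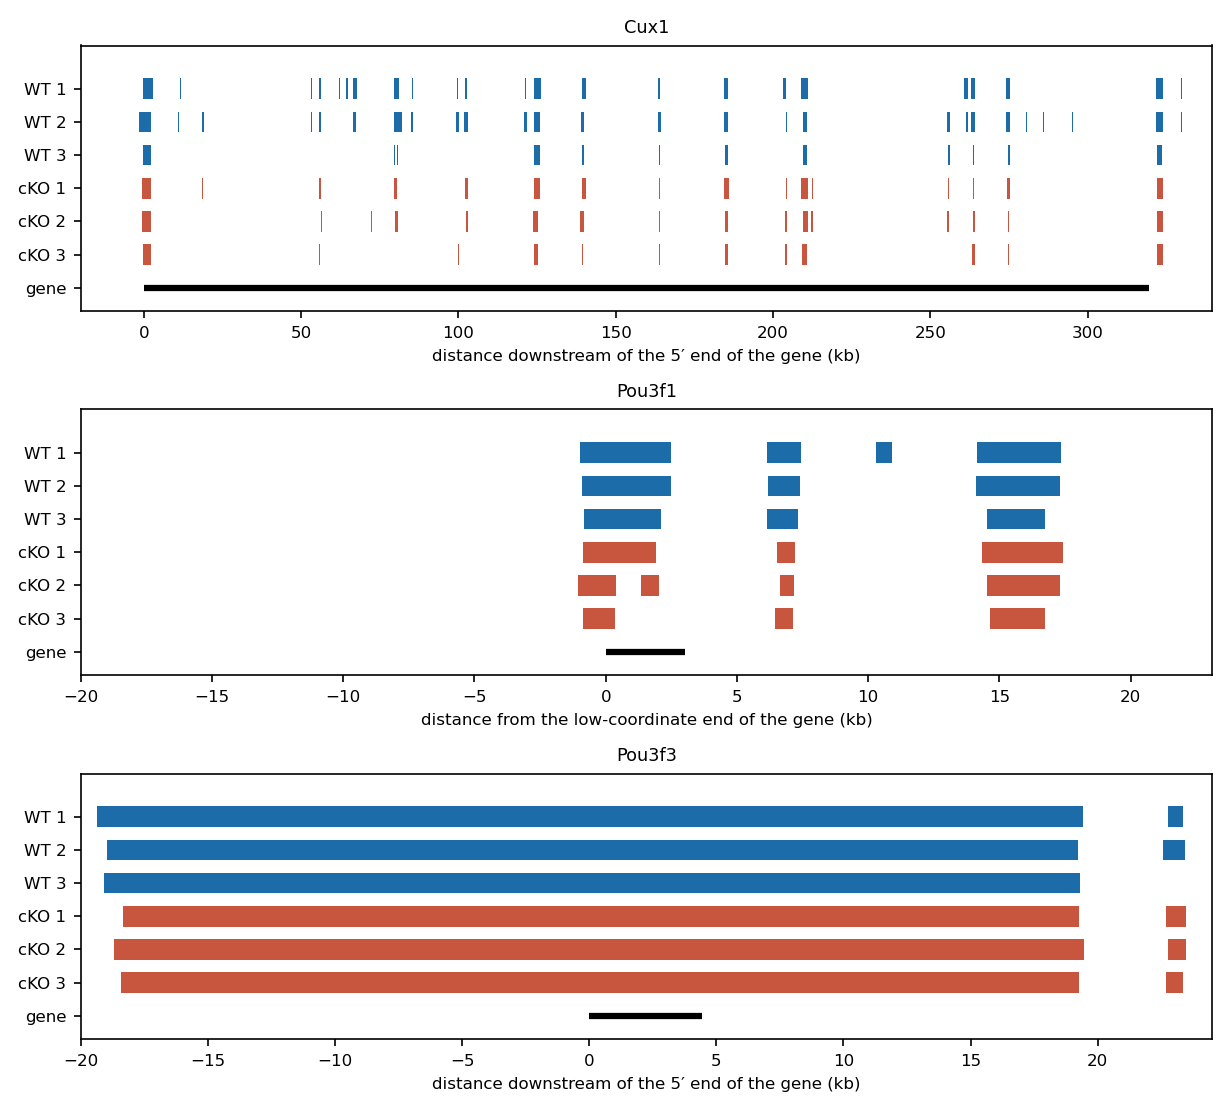
Peaks of the 6 lists (WT blue, cKO red) over the windows of Cux1, Pou3f1 and Pou3f3, as distance in kb from the 5′ end of the gene or, for Pou3f1, from its low-coordinate end. Cux1 carries many short separate peaks (25 and 27 in WT replicates 1 and 2, 12 to 18 in the other lists), the Pou3f1 site beyond the gene is shorter in all 3 cKO lists, and Pou3f3 lies under 1 domain of nearly the same extent in every list.

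Rorb encodes a nuclear receptor of the layer that receives thalamic input. It lies on the minus strand at chr19:18930609-19111196. Unscaled covered length was 6355, 6570 and 3049 bp in WT and 4777, 3892 and 3152 bp in cKO, the lowest of the 8 windows per length. Scaled lengths were 5552, 5190 and 4117 bp in WT (4953 ± 746, SD, n = 3) and 4768, 3999 and 3608 bp in cKO (4125 ± 590, SD, n = 3). The log2 change was -0.24 ± 0.11 (SE, limma unadjusted p = 0.0587, adjusted p = 0.524), and it was negative in both library sets (-0.27 and -0.17). Its lowest site p belonged to chr19:19004008-19006528, covered over 921, 2521 and 353 bp in WT and 291, 527 and 243 bp in cKO (log2 change -1.03 ± 0.39, SE, limma adjusted p = 0.479), where WT replicate 2 stood far above the rest (log2 change -0.64 without it). Next came chr19:19000815-19001543, covered over 698, 595 and 0 bp in WT and 260, 283 and 433 bp in cKO. The log2 change there was 0.18 ± 0.54 (SE, limma adjusted p = 0.934), and -0.63 without WT replicate 3, the library at 0. The longest site, chr19:19108504-19111733 over the first start, had a log2 change of 0.04 ± 0.24 (SE, limma adjusted p = 0.968). Over the promoter window of the second start, chr19:19001068-19001367, peaks covered 300, 300 and 0 bp in WT and 238, 84 and 300 bp in cKO.

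Mef2c encodes a MADS-box factor that acts in the differentiation and synapse formation of cortical neurons. It lies on the plus strand at chr13:83504017-83667079. Unscaled covered length was 31686, 30405 and 21945 bp in WT and 26188, 25269 and 25120 bp in cKO. Scaled lengths were 27681, 24020 and 29634 bp in WT (27112 ± 2850, SD, n = 3) and 26138, 25962 and 28751 bp in cKO (26950 ± 1562, SD, n = 3), so that all cKO libraries fell inside the WT range (log2 change -0.005 ± 0.11, SE, limma adjusted p = 0.989). None of its 8 tested sites of 11 reached an unadjusted p of 0.05. The lowest p belonged to chr13:83522843-83527008 (log2 change 0.13 ± 0.15, SE, limma adjusted p = 0.830). Next came chr13:83527660-83532543 (-0.12 ± 0.19, SE, limma adjusted p = 0.875). The longest, chr13:83658588-83667390 over the 3′ end, was covered over 8244, 8483 and 7215 bp in WT and 7108, 7787 and 8044 bp in cKO (log2 change 0.05 ± 0.14, SE, limma adjusted p = 0.931). The sequences of its first and second starts are shown because only the second lay under peaks, with capitals as for Cux2.
Mef2c first start, chr13:83503784-83504083: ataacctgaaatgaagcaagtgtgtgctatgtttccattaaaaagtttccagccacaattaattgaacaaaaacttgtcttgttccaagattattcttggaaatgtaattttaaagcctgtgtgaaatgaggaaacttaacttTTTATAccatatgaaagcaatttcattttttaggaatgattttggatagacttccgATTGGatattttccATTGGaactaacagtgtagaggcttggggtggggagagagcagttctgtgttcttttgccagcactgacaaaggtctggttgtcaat
Mef2c second start, chr13:83523406-83523705: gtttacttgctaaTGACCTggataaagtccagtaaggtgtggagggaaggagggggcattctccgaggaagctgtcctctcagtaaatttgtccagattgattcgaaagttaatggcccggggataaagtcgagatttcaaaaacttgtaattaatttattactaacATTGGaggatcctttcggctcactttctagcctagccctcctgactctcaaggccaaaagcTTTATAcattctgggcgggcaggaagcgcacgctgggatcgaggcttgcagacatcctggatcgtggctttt
The first window was at 0 bp in all 6 lists, and so was the third start at chr13:83573357-83573656. The second was covered over 300, 300 and 300 bp in WT and 300, 277 and 300 bp in cKO. The first holds 1 CG dinucleotide and has a GC content of 35.7%, and the second holds 10 and has 47%. Both hold a TATAAA and a CCAAT match, of which the first window has 2, and the second also holds an AGGTCA match.

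Bhlhe22 (Bhlhb5) encodes a basic helix-loop-helix repressor of postmitotic neurons that acts in the identity of cortical areas. It lies at chr3:18054325-18057514 under a single site of 9686 bp, longer than 99.69% of all sites, with Cyp7b1 in the same window. The site was called as 1 peak in WT replicate 2 and as 2 peaks in the other 5 lists. Unscaled covered length was 8278, 9003 and 7218 bp in WT and 8405, 7596 and 7192 bp in cKO. The scaled values were 7232, 7112 and 9747 bp in WT (8030 ± 1488, SD, n = 3) and 8389, 7804 and 8232 bp in cKO (8142 ± 303, SD, n = 3). The cKO libraries lay between the WT libraries, and the log2 change was 0.03 ± 0.12 (SE, limma adjusted p = 0.944).

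Over all 8 windows, 37 of the 85 sites were covered in all 6 libraries, 19 in a single library (9 in WT replicate 1, 7 in WT replicate 2, 3 in cKO libraries) and 9 in WT replicates 1 and 2 alone, which have the largest covered totals of the 6 lists. Of all sites in the genome, 46.4% were covered in all 6 libraries, 21.2% in a single library and 4.33% in WT replicates 1 and 2 alone. The Cux2 site above, 1 of 85, was covered in every WT and in no cKO library (0.907% of all sites), and 0 sites were covered in every cKO and in no WT library (0.347%). Of the 52 sites with a mean scaled length of at least 200 bp, which alone were tested, 1 passed, with lower cKO (0.866% of tested sites in the genome passed, 0.582% with lower and 0.284% with higher cKO). At an unadjusted p below 0.05, 10 of 52 were lower in cKO, 5 in Cux2, 3 in Cux1 and 1 each in Pou3f1 and Rorb, and 0 were higher, against 5.53% lower and 4.75% higher of all tested sites, or 10.3% in either direction. Leaving out WT replicate 1 or 2 gave 6 or 4 such lower sites, and leaving out cKO replicate 1 or 2 gave 6 or 5. Sites covered in WT only numbered 10 without WT replicate 3 and 2 without cKO replicate 1. Calls numbered 3 without WT replicate 3 or without cKO replicate 3, both of which estimate the change from set A. Of the 10 lower sites, 5 had 0 bp in every cKO library and met the 200 bp minimum through WT alone, and 4 of these had no peak outside WT replicates 1 and 2. Without scaled overlap, 4 sites were lower in cKO, 3 in Cux2 and 1 in Pou3f1 (5.79% of tested sites). Another 2 were higher, 1 each in Cux2 and Pou3f3 (7.98%). Before scaling, 8 of the 52 were lower without overlap (6.69%). Of the 47 tested sites with a peak in both genotypes, 5 were lower and 0 higher at this threshold (3.86% and 4.42% of such sites in the genome). The signs of all 52 were nearly even, 27 negative and 25 positive (41% of all tested sites were negative), with a median of -0.02 against 0.06 for all tested sites. Sites of one gene share their libraries and are not independent.

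**Figure D4:**
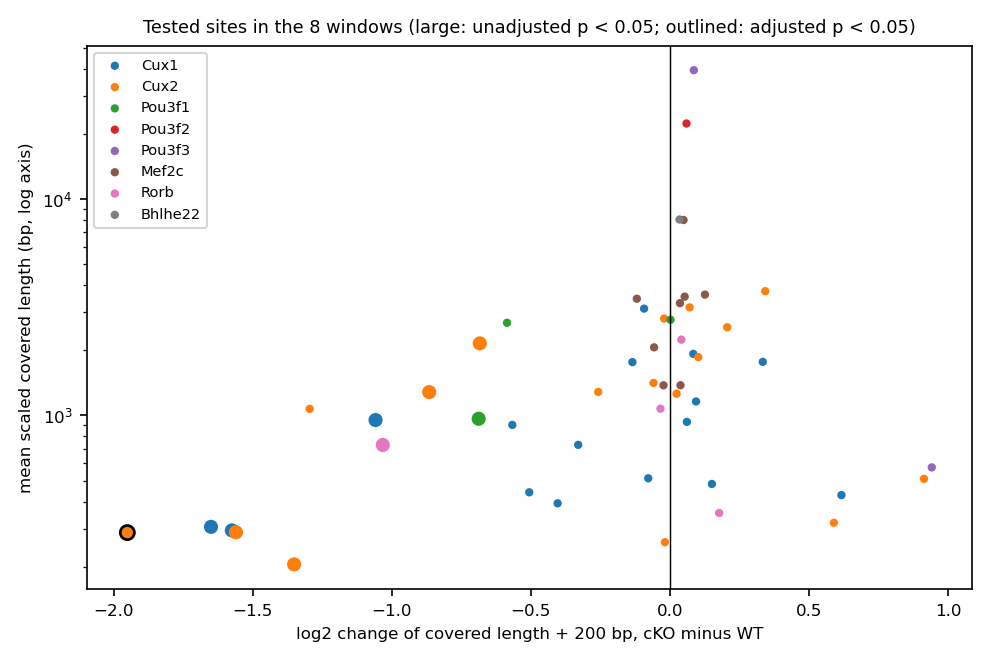
The 52 tested sites by log2 change of covered length, cKO minus WT (horizontal axis), and mean scaled covered length in bp (vertical log axis), coloured by gene. The 10 large points, with an unadjusted p below 0.05, all lie left of 0 and belong to Cux1, Cux2, Pou3f1 and Rorb, the 1 outlined point is the Cux2 site that passed, and the longest sites lie near 0.

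Covered bases were also compared one by one. In the 8 windows 9 stretches of at least 100 bp were covered in all 3 WT and in no cKO library, 1947 bp in all or 0.957% of the bases under any peak at the members' sites (0.645% over all sites). No stretch was covered in all 3 cKO and in no WT library (0.306% of bases over all sites). Cux2 held 4 of the 9 stretches, Pou3f1 2, and Cux1, Pou3f3 and Rorb 1 each. The 2 Pou3f1 stretches, of 258 and 123 bp, lie at either side of its shorter cKO peak beyond the gene. In Pou3f3 a stretch of 285 bp lies at the low-coordinate edge of the long domain.

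Related genes were compared by lists of the same kind of measure. Of 12 other upper-layer genes 0 passed, 6 were negative and 6 positive, with a median log2 change of -0.02. The smallest p was that of Unc5d, which encodes a receptor for netrins (log2 change -0.63 ± 0.15, SE, limma adjusted p = 0.0855), followed by Limch1 (-0.38 ± 0.11, SE, limma adjusted p = 0.164). Of 6 paralogs of the members 0 passed, 1 was negative and 5 positive, with a median of 0.04. Pou3f4, the fourth gene of its POU class, had a log2 change of -0.44 ± 0.17 (SE, limma adjusted p = 0.402) and the MADS-box gene Mef2d 0.07 ± 0.11 (SE, limma adjusted p = 0.873). Of 12 deep-layer neuron genes 0 passed, 4 were negative and 8 positive, with a median of 0.02 and the smallest p at Foxp2 (-0.42 ± 0.11, SE, limma adjusted p = 0.126) and Foxp1 (0.24 ± 0.12, SE, limma adjusted p = 0.513). At an unadjusted p below 0.05, 2 upper-layer genes were lower and 1 higher, 1 paralog lower, and 1 deep-layer gene lower. Of all genes, 4.29% were lower and 5.66% higher at this threshold.

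**Figure D5:**
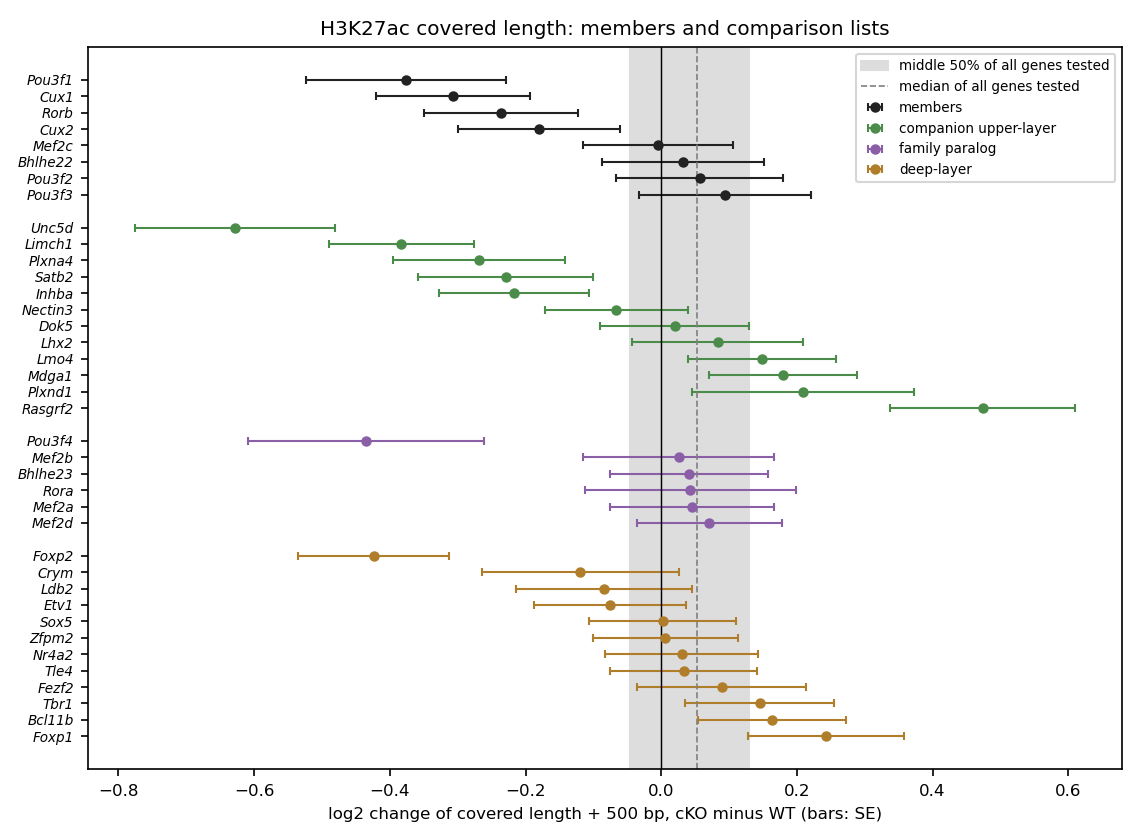
Log2 change of covered length + 500 bp, cKO minus WT, with SE, for the 8 members, 12 other upper-layer genes, 6 paralogs and 12 deep-layer genes, against the median (dashed line) and the interquartile range of all genes tested (grey band). Pou3f1, Cux1, Rorb and Cux2 lie left of the grey band and Mef2c, Bhlhe22, Pou3f2 and Pou3f3 within it, and no gene shown passed the test.

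Markers of other cell types were read in the same libraries, and their part in the values above was not tested. Of 8 radial glia markers 0 passed, 2 were negative and 6 positive, Hes5 with the smallest p (0.34 ± 0.11, SE, limma adjusted p = 0.262) (summed scaled length 110 to 158 kb in WT and 130 to 143 kb in cKO). Of 4 intermediate progenitor markers 0 passed and all 4 were negative (61.0 to 81.0 kb in WT and 64.8 to 66.9 kb in cKO). Their log2 changes were small, from -0.107 to -0.002 with a median of -0.048. Of all genes 34.7% were negative, with quartiles at -0.046 and 0.130. Of 8 interneuron and ventral forebrain markers 7 were tested, 0 passed and 7 were positive (121 to 172 kb in WT and 148 to 165 kb in cKO), with Nkx2-1 at 0 in all 6 libraries. Their log2 changes ran from 0.020 to 0.228 with a median of 0.146, and most genes in the genome were positive as well. The windows of Dlx1 and Dlx2 overlap, as do those of Dlx5 and Dlx6. Shared bases thus enter the sum more than once, and the 7 values are not independent. Of 9 vascular, microglial and meningeal markers 6 were tested, 0 passed, 3 were negative and 3 positive, Pdgfrb with the smallest p (-0.31 ± 0.12, SE, limma adjusted p = 0.359) (26.9 to 29.3 kb in WT and 25.02 to 27.09 kb in cKO), with Cldn5, Cx3cr1 and Foxc1 below the minimum length for a test. The microglial gene Cx3cr1 had a scaled covered length of 1689, 1221 and 724 bp in WT and 0, 270 and 0 bp in cKO. The other microglial genes of the list differed in direction and did not pass. Aif1 had a log2 change of 0.13 ± 0.12 (SE, limma adjusted p = 0.796) and Csf1r one of -0.29 ± 0.14 (SE, limma adjusted p = 0.537). The windows of Csf1r and Pdgfrb overlap, so any peak in the shared stretch enters the summed length more than once. The genes whose covered length followed the median profile of the 8 members most closely over the 6 libraries were 1700016D06Rik (Pearson r = 0.993), Ppp1r16a (0.990) and Gsk3b (0.985), a description over libraries that share the scaling.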

How the data were processed

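H3K27ac peaks of 6 libraries were used, and the 6 input libraries were not analysed here. The submitters' processing notes name MACS2 2.1.1, Bowtie2 2.2.8, cutadapt and FastQC with mm10. Not given in the sources used here are parameters, the control for peak calling and any pooling. Each deposited broad peak list holds peak positions with the authors' fold enrichment ratio, -log10 p and -log10 q per peak, used here only within a list, and a display score left unused. Gene coordinates were those of RefSeq (GRCm38.p6), in a table without strand or exons, so sites are placed inside or beyond a gene, and strand came from the RefSeq promoter table, which held 6 of the 8 members.

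Bases under peaks per window or site were scaled to the mean list total, log2 transformed (pseudocounts 500 and 200 bp, minimum means 1000 and 200 bp) and tested with limma 3.58.1 in R 4.3.3 (trend and robust off, library set as covariate, Benjamini-Hochberg adjustment). The fit was also run on simulated data with independent normal noise. That simulation had no library set effect and no differences in list length, so it does not bear on individual calls. All adjusted p-values are from limma. Sites were peaks of the 6 lists that overlapped by 1 bp or touched. Python 3.11.15 with pandas 2.3.3 was used. Covered length reflects how many peaks a list holds and how wide they are, not how high.

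The members, lists and tests were chosen with earlier results of these data known. All 8 members were named. Sites were named if called or present in 1 genotype, with the 2 lowest p per member and the longest site. For the upper-layer, paralog and deep-layer lists the 2 genes reported with the lowest p were named. Outside this rule, the Cux2 sites at 122047503, 122052502 and 121924255 and the Pou3f1 site at 124671751 were also named. Hes5, Pdgfrb, Cx3cr1, Aif1 and Csf1r were named after their values were seen. From the comparison lists, 2 genes are not reported here. Same-numbered libraries correlated in their deviations by 0.13, 0.06 and 0.26, so the numbers were not taken as pairs. Alternatives were stricter or equal-length lists, leaving out libraries, other covariates, scalings, pseudocounts, windows, minimums and merging rules.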

Additional observations from a re-analysis of the deposited data

How the results depend on the processing

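In the range of alternatives run, 0 of the 8 windows passed, and Cux1, Pou3f1 and Rorb stayed negative in all 20 settings, the reported one included. These are not 20 separate checks. Leaving out WT replicate 3, leaving out cKO replicate 3 and set A alone give the same estimate by construction (Cux1 -0.402). So do the reported fit, the fit without the covariate, the replicate block and no minimum length (Cux1 -0.307). The limits are the unknown depth, 3 libraries per genotype and a measure that follows list length. Scaling to the sum over gene windows was chosen after seeing the data.

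Counts of calls were unstable. Of all genes 106 passed, and 38 with peaks of a -log10 q of at least 5, 58 with equal-length lists, 3 in library set A alone, 39 without the covariate, 1 without scaling, 18 with quantile normalization, 23 with no minimum length, 39 and 208 with pseudocounts of 100 and 2000 bp, 42 when scaled to gene windows, and 2 to 232 when 1 library was left out. Of all sites 485 passed, and 794 with equal-length lists, 1572 in set A alone, 321 without scaling, 296 with quantile normalization, 72 with no minimum length, 169 with a pseudocount of 1000 bp and 0 to 1258 when 1 library was left out. Among the members' sites 1 passed, and 5 did in set A alone, 0 with equal-length lists, 0 with no minimum length (adjusted p of the Cux2 site 0.0542), 0 with a pseudocount of 1000 bp (0.0607) and 0 to 3 when 1 library was left out. No paired numbers were established. With the replicate block in place of the library set, 168 genes, 0 sites and 0 of the members' sites passed (Cux2 site 0.0951).

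Member sites lower at an unadjusted p below 0.05 numbered 10, and 2 with the stricter q, 4 with equal-length lists, 4 without the covariate and 4 to 12 when 1 library was left out. Sites higher numbered 0, and 1 with equal-length lists, 1 with quantile normalization and 0 to 1 with 1 library left out. Sites with a peak in WT only numbered 1, and 2 where a site counted as present only if mostly covered, and 1 to 10 with 1 library left out, the 10 without WT replicate 3. The Cux2 site that passed is not the WT-only site with the stricter q (Cux1 at 136292173), with equal-length lists (Cux2 at 121902869) or under the rule on coverage (Cux2 at 121966807 and 122052502). Sites in cKO only numbered 0, and 1 with equal-length lists and 0 to 1 with 1 library left out. Without scaling 8 members were shorter in cKO.

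Small log2 changes turned sign, and the cause was not tested. Cux2 was 0.097 with the stricter q. Bhlhe22 was -0.029 with the stricter q, -0.016 with equal-length lists, -0.072 without scaling, -0.005 with quantile normalization, -0.052 with 100 kb flanks and -0.034 to 0.163 with 1 library left out. Mef2c was 0.014 in set A alone, 0.018 with quantile normalization, 0.036 with 100 kb flanks and -0.068 to 0.047 with 1 library left out. Pou3f2 was -0.051 without scaling and -0.028 to 0.202 with 1 library left out, and Pou3f3 was -0.015 without scaling.

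The same held for sites with log2 changes that were small or had a large SE. With the stricter q, the Mef2c site at 83527660 was 0.288, the one at 83658588 -0.036 and the Bhlhe22 site -0.030. With equal-length lists, the Mef2c site at 83658588 was -0.054, the Rorb sites at 19000815 and 19108504 were -0.475 and -0.006, and the Bhlhe22 site was -0.016. In set A alone the Rorb site at 19000815 was -0.633. Without scaling, the long sites of Pou3f2, Pou3f3, Mef2c and Bhlhe22 were -0.052, -0.024, -0.059 and -0.074, and the Rorb sites -0.007 and -0.062. With quantile normalization, the long sites of Pou3f2, Mef2c and Bhlhe22 were -0.004, -0.020 and -0.043, and the Rorb sites -0.043 and -0.010. With 1 library left out, ranges were -0.235 to 0.595 (Cux2 site at 121891988), -0.028 to 0.205 (Pou3f2), -0.011 to 0.261 (Pou3f3 at 42676409), -0.633 to 0.487 and -0.168 to 0.245 (Rorb at 19000815 and 19108504), -0.034 to 0.170 (Bhlhe22) and -0.017 to 0.114 (Mef2c at 83658588).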
